A study of Mus musculus with 1666 samples.

Results

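The classical cadherins described here are Cdh1 (E-cadherin), Cdh3 (P-cadherin), Cdh2 (N-cadherin) and Cdh11 (OB-cadherin). They were taken by gene symbol from the deposited expression table, where all 4 are present among 49662 symbols. Their levels are given in 2 classes of mouse whisker follicle cells that were set by other genes: epithelial cells, with at least 10 TPM of the basal keratin Krt5, at least 10 TPM of the basal transcription factor Trp63 and under 50 TPM of the fibrillar collagen Col3a1, and fibroblast-like cells, with at least 50 TPM of Col3a1, at least 10 TPM of the receptor Pdgfra and under 10 TPM of Trp63. TPM divides reads by the length of the gene and then by the total of the cell, so that levels of different genes can be compared. Of 1614 cells, 1035 met the epithelial rule, 417 the fibroblast-like rule and 162 neither.

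Classical cadherins are calcium-dependent adhesion proteins that bind mainly to the same cadherin on the neighbouring cell. Their tails bind p120 catenin and beta-catenin or plakoglobin, and alpha-catenin links these to actin. In skin, Cdh1 is known from all living layers of the epidermis and Cdh3 from basal cells and hair buds, where the placode is known for high Cdh3 and reduced Cdh1, while Cdh2 and Cdh11 are mesenchymal cadherins. The placode is the epithelial thickening that starts a follicle, Shh is a signal secreted by its cells and later by the hair matrix, and the dermal condensate is the cluster of fibroblasts beneath it.

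The cells came from embryos of a transgenic mouse line that carries nuclear Kikume Green-Red, a fluorescent protein that light turns from green to red, and were profiled singly by RamDA-seq, which reads total RNA over the full length of transcripts. Whole single whisker follicles had been photoconverted at each of the 6 stages from E12.0 to E17.0, and red cells with surface ITGA6 (alpha 6 integrin) and without CD31 (an endothelial protein) were sorted. At E11.5 cells were sorted on ITGA6 and CD31 alone, with no photoconversion, so that this stage also differs in how its cells were chosen. No mutation, drug or strain was compared, and the driver of the transgene is not given in the sources used here.

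Neither an embryo nor a litter is given for any cell. A stage therefore counts as 1 sample, p-values measure the spread between stages, and whether plates of a stage come from separate animals is not known. The cells with values lay on 18 plates, from 1 plate at E11.5 to 4 at E15.0. Depth is unknown because the values are TPM, and the median cell of a stage had 16601 to 19468.5 genes at 1 TPM or more. Although cells were sorted on ITGA6, fibroblast-like cells made up 73.3 to 82.2% of each E13.0 plate and 81.1% of E15.0 plate 1, against 0 to 23.3% of the other 14 plates. Plates of unlike makeup are therefore compared below within a class only. The titles give 4 of 14 plate identifiers at 2 stages each: E15.0 plate 1 shares its identifier with E13.0 plate 1, and E15.0 plates 2, 3 and 4 share theirs with E17.0 plates 1, 2 and 3. These pairs have 80 to 86 wells in common, 0 cells with identical values, and a median correlation across genes of 0.60 to 0.63 for the same well and 0.60 to 0.64 for other wells. Whether such plates were prepared together is not given in the sources used here, and stages are treated as separate samples. E15.0 plate 1 also had the makeup of the E13.0 plates, and whether its sort or its stage label differs from the other E15.0 plates cannot be told apart. Without it the calls of the cadherins between classes, with Shh and over stages were the same, and the Cdh2 call in condensate cells was lost (0.85, adjusted p = 0.0852 by limma).

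Among the 8 fixed basal markers and the 8 fibroblast markers, Krt5, Trp63, Col3a1 and Pdgfra set the classes and lend the names no support. The class names held for the other basal markers and for most of the other fibroblast markers. Median Krt14, which the rule did not use, was 279 TPM in epithelial cells and 0 in fibroblast-like cells, and median Epcam was 42.5 and 0 TPM. Twist2 was 0 against 141 TPM and Prrx1 0.127 against 159 TPM, but the later fibroblast genes Lum (1.53 TPM) and Dcn (2.67 TPM) were low in the fibroblast-like class too. Itga6, the gate's own gene, had a median of 78.1 TPM in epithelial and 9.45 TPM in fibroblast-like cells. Epithelial cells numbered 54, 267, 53, 159, 144, 178 and 180 from E11.5 to E17.0. Fibroblast-like cells numbered 14 at E11.5, 210 at E13.0, 19 at E14.0, then 126 and 46 at the last stages, and the 0 of E12.0 (which allows a share of up to 1.09%) and 2 of E13.5 entered no comparison.

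In GENCODE M21 on the mm10 build, all 4 members are protein-coding and 3 lie on chromosome 8. Cdh3 (ENSMUSG00000061048.8, chr8:106510891-106557297, plus strand) ends 46053 bases before Cdh1 starts (ENSMUSG00000000303.12, chr8:106603351-106670246, plus strand), so that the epithelial cadherins are neighbours on the same strand. Cdh11 (ENSMUSG00000031673.6) is at chr8:102632095-102785642 on the minus strand. Cdh2 (ENSMUSG00000024304.14) is at chr18:16588877-16809246, also on the minus strand.

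The first comparison asks which cadherin each compartment carried. Cdh1 and Cdh3 were epithelial, and Cdh2 and Cdh11 fibroblast-like, at every stage at which both classes could be compared, with differences from 5.15 to 443 times in level. Of all genes tested, 12.1% were higher and 21.04% lower in epithelial cells at every stage. Cdh1 averaged 38.7 TPM in epithelial cells and 0.530 TPM in fibroblast-like cells at E11.5, 97.8 and 0.221 at E13.0, 94.0 and 0.944 at E14.0, 68.9 and 0.501 at E15.0, and 70.2 and 0.375 at E17.0. No stage mean of one class came near those of the other. Cdh2 was the mirror image, at 0.402, 0.143, 0.358, 0.553 and 0.517 TPM in epithelial cells of these stages and 38.7, 34.6, 36.1, 35.5 and 20.03 TPM in fibroblast-like cells.

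Cdh11 was the most abundant cadherin of fibroblast-like cells, with 146, 166, 165, 192 and 222 TPM from E11.5 to E17.0, between 3.77 and 11.1 times the Cdh2 level. In epithelial cells of the same stages it had 0.544, 1.25, 5.005, 6.42 and 8.03 TPM. The classes stayed far apart, but the distance shrank from 268 times at E11.5 to 27.6 times at E17.0. Cdh3 had the least separation from E13.0 on, and at E11.5 Cdh1 did (72.96 times). Its epithelial means were 117, 48.4, 64.6, 55.8 and 77.3 TPM, against 1.36, 0.755, 7.67, 10.8 and 2.99 TPM in fibroblast-like cells, so that the gap was 85.6 times at E11.5 and 5.15 times at E15.0.

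**Figure D1:**
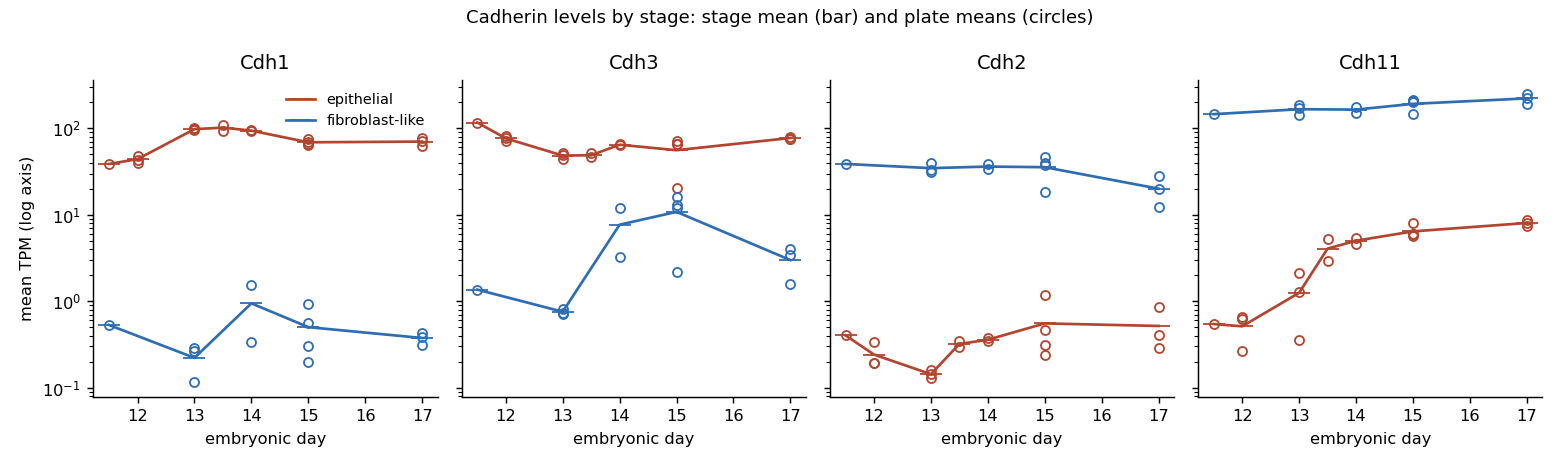
Mean TPM (log axis) of each cadherin against embryonic day in epithelial (red) and fibroblast-like (blue) cells; circles are plate means over at least 5 cells, and horizontal ticks joined by lines are stage means. Cdh1 and Cdh3 lie higher in red and Cdh2 and Cdh11 in blue at every stage, Cdh11 climbs in epithelial cells from 0.544 to 8.03 TPM, and the lone low red Cdh3 circle is E15.0 plate 1 at 20.6 TPM.

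All 4 differences passed the test: limma on the 5 paired stage differences of log2(mean TPM + 1), over 24166 genes with Benjamini-Hochberg adjustment. In this comparison 21.3% of all genes passed, 7.999% as higher in epithelial cells and 13.3% as lower. Cdh1 was higher in epithelial cells by 5.58 (log2, SE 0.22, adjusted p = 5.99e-05) and Cdh3 by 3.99 (SE 0.49, adjusted p = 0.00338). The difference was -4.58 for Cdh2 (SE 0.19, adjusted p = 6.13e-05) and -5.38 for Cdh11 (SE 0.34, adjusted p = 3.05e-04). The median of all genes was -0.10. With median-of-ratios scaling the share of calls that were higher in epithelial cells went from 37.5 to 51.3%, and the calls of the 4 cadherins were the same in all 29 alternatives run.

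Shares of cells gave the same division. At 10 TPM or more, 97.9% of epithelial cells had Cdh1 (exact 95% interval 96.8 to 98.7), 94.1% Cdh3 (92.5 to 95.5), 11.2% Cdh11 (9.35 to 13.3) and 0.193% Cdh2 (2 of 1035 cells, 0.0234 to 0.696). Of fibroblast-like cells, 99.5% had Cdh11 (98.3 to 99.9), 73.6% Cdh2 (69.1 to 77.8), 7.19% Cdh3 (4.91 to 10.1) and 0.719% Cdh1 (3 of 417 cells, 0.149 to 2.09). Most epithelial cells held both of their cadherins at that level (92.2%), and 73.1% of fibroblast-like cells held Cdh2 with Cdh11. Intervals cover counting error only.

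The partners of the cadherins, taken from fixed lists, divided in part with them. Of 14 catenins and adaptors, 13 were tested, 8 were higher in epithelial cells and 0 lower, with a median difference of 0.86. Beta-catenin (Ctnnb1), which binds every classical cadherin, was high in both classes, at 1580 TPM in epithelial and 761 TPM in fibroblast-like cells (1.01, SE 0.13, adjusted p = 0.00390 by limma). Plakoglobin (Jup), its relative that also serves desmosomes, differed more, at 277 and 31.8 TPM (2.98, SE 0.25). The LIM protein Ajuba (61.2 and 11.02 TPM), the delta-catenin Ctnnd2 (8.09 and 0.327 TPM), p120 catenin Ctnnd1 (90.8 and 53.3 TPM), Arvcf, Pkp4 and afadin (Afdn) made up the rest.

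Desmosomes, junctions built from desmosomal cadherins and plakins, were called higher in epithelial cells for 10 of 11 tested genes, with a median of 3.30. The plakin Dsp stood at 122 and 0.405 TPM, the plakophilin Pkp3 at 101 and 0.628 TPM, and Perp, a membrane protein of desmosomes, at 124 and 0.159 TPM. Nectins are calcium-independent adhesion proteins of the junctions that classical cadherins form, and not of desmosomes. They had 2 of 5 members called: Nectin1 (46.2 and 11.1 TPM) and Nectin4 (7.45 and 0.154 TPM). Among 8 tested members of the list of other cadherins, Cdh10 (1.14 and 2.81 TPM) and Cdh18 (0.350 and 2.18 TPM) were lower in epithelial cells, and no member was called higher.

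Transcription factors known to repress Cdh1 were lower in epithelial cells for 6 of 9 list members: Zeb2 (3.32 against 308 TPM), Twist2 (0.160 against 185), Twist1 (0.326 against 155), Tcf4 (120 against 522), Zeb1 (1.21 against 23.3) and Snai1 (0.216 against 10.9). Snai3 was higher, at 3.26 against 0.00247 TPM, and Snai2 and Tcf3 did not pass. Factors known to keep the epithelial state were higher for 9 of 10, among them the splicing regulators Esrp1 (67.2 against 0.569 TPM) and Esrp2 (76.4 against 2.42) and the Cdh1 activator Grhl2 (43.9 against 0.967). Klf4 was lower, at 18.9 against 43.97 TPM. Of 6 genes for cadherin shedding and turnover, the endocytic adaptor Numb was higher (23.3 against 15.8 TPM) and Pip5k1c lower (26.8 against 43.1 TPM). Among the hedgehog genes, Ptch1, Gli1, Gli3 and Hhip were lower (Ptch1 at 92.2 against 227 TPM). Of 7 placode genes 4 were higher, among them Edar (8.27 against 0.0880 TPM), and Lef1, which fibroblasts also express, was lower (117 against 506). Of the 51 list genes called in the class comparison, 30 were called in every alternative run for them and 21 lost the call in at least 1. Desmosome calls went from 10 to 5 without E14.0 or without E15.0, and to 6 without E13.0 or without E17.0, while placode calls went from 4 to 2 without E14.0 or without E15.0. Both calls among the other cadherins were lost without E14.0 or without E15.0, and 1 of the 2 without E13.0 or without E17.0. No called list gene changed sign.

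The next comparison follows the epithelial cadherins over time. Cdh1 was at 38.7 TPM at E11.5 and 44.01 at E12.0, at 97.8, 102 and 94.0 from E13.0 to E14.0, and at 68.9 and 70.2 at E15.0 and E17.0. Plate means did not overlap between E12.0 (40.2 to 48.3 TPM) and E13.0 (96.4 to 99.7), nor between E14.0 (93.3 to 94.7) and E15.0 (63.6 to 75.3). Those of E13.5 (93.9 to 110) overlapped both E13.0 and E14.0, while E13.0 lay just above E14.0. Those of E15.0 and E17.0 (62.4 to 76.3) lay together. In order of level, E13.5, E13.0 and E14.0 thus came first, with E13.5 not separated from either. Next were E17.0 and E15.0, not separated by their plates, then E12.0 and the lone plate of E11.5. Here and below, a stage difference cannot be told apart from a difference between batches of plates. The share of all genes whose plate means separate in this way is not given.

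Cdh3 ran the other way. It was highest at E11.5 with 117 TPM and at 76.5 TPM at E12.0, lowest at 48.4 and 48.8 TPM at E13.0 and E13.5, and at 64.6, 55.8 and 77.3 TPM at E14.0, E15.0 and E17.0. Plate means of E12.0 (71.7 to 80.6) lay above those of E13.0 (44.6 to 51.4) and E13.5 (46.1 to 51.5), which overlapped each other. Those of E14.0 (63.5 to 65.8) lay above both, and those of E17.0 (75.3 to 80.4) overlapped only E12.0 among the stages with several plates. At E15.0, 3 plates had 65.5 to 70.5 TPM and plate 1, with 10 epithelial cells, had 20.6 TPM. Without plate 1 the E15.0 mean was 67.5 TPM.

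Neither gene had a straight trend with embryonic day over the 7 stages (limma on log2(stage mean TPM + 1), 23671 genes). The slope was 0.13 per day for Cdh1 (SE 0.10, adjusted p = 0.536) and -0.06 for Cdh3 (SE 0.09, adjusted p = 0.731). In this fit 1.87% of genes passed. The Cdh3 slope changed sign without E11.5 (0.05, adjusted p = 0.737), the stage sorted without photoconversion.

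The Cdh3 to Cdh1 ratio joined these opposite courses. It was 3.02 at E11.5 and 1.74 at E12.0, 0.495 at E13.0 and 0.479 at E13.5, and then 0.688, 0.810 and 1.10 at E14.0, E15.0 and E17.0. Cdh3 thus exceeded Cdh1 at the earliest stages, Cdh1 exceeded Cdh3 from E13.0 to E15.0, and the means were near equality at E17.0. Plate ratios of E12.0 (1.60 to 2.01) were all above 1, and those of E13.0 (0.457 to 0.515), E13.5 (0.420 to 0.549) and E14.0 (0.670 to 0.705) were all below it. At E15.0 they ran from 0.323 on plate 1 to 1.003, and without that plate the stage ratio was 0.956. At E17.0 they were 1.05 to 1.21.

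Shares of single cells with more Cdh3 than Cdh1 were high at the first stages too. Cdh3 was above Cdh1 in 53 of 54 epithelial cells at E11.5 (98.1%, exact interval 90.1 to 100.0) and in 74.2% at E12.0 (68.5 to 79.3). The share was 16.98% at E13.0 (8.07 to 29.8) and 22.6% in E13.5 cells (16.4 to 29.9). It was 28.47% of E14.0 cells (21.3 to 36.6), 41.01% of E15.0 cells (33.7 to 48.6) and 47.2% of E17.0 cells (39.8 to 54.8). The lowest share was at E13.0, where the lowest ratio of means was at E13.5, and at E17.0 the share was under 50% while every plate ratio was above 1. The intervals of E12.0 and E13.0 did not overlap, but they cover counting error over cells and not the spread between plates or stages. Against embryonic day the log2 ratio had Pearson's r = -0.37 (7 stages, exact permutation p = 0.424, two-sided) and Spearman's rho = -0.32 (exact permutation p = 0.498). The adjusted p over both ratio tests was 0.424, and r was -0.42 over the 5 stages left without E11.5 and E17.0. Without E11.5 alone, r was 0.04.

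**Figure D2:**
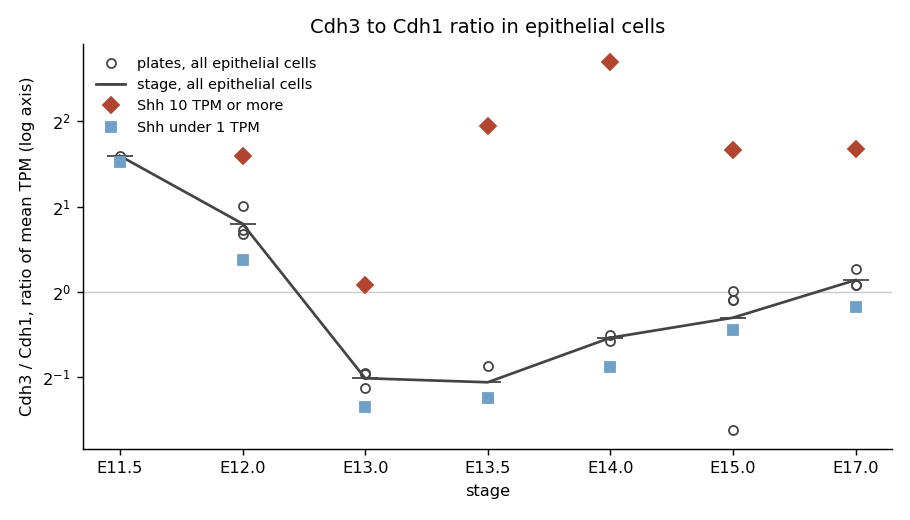
Ratio of mean Cdh3 to mean Cdh1 TPM (log axis) in epithelial cells by stage; circles are plates, ticks joined by a line are stages, diamonds are cells with Shh at 10 TPM or more and squares cells with Shh under 1 TPM (sets of at least 5 cells). The line falls from 3.02 at E11.5 to 0.479 at E13.5 and returns to 1.10 at E17.0, and every diamond lies above the square of its stage.

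Within each stage from E12.0 on, epithelial cells with Shh had more Cdh3 and less Cdh1 on average than those without it. Shh was at 10 TPM or more in 142 of 1035 epithelial cells (13.7%) and under 1 TPM in most others, with 67 cells between these limits. At E12.0, 64 cells with Shh averaged 120 TPM of Cdh3, against 57.9 TPM in 175 cells without it. In the E13.0 follicles the pair was 63.1 (12 cells) and 43.5 TPM (39 cells), and in those of E13.5 it was 127 (5 cells) and 44.4 TPM (146 cells). Later pairs were 168 (11 cells) and 54.7 TPM (127 cells) at E14.0, 153 (15 cells) and 54.1 TPM (154 cells) in E15.0 cells, and 105 (32 cells) and 69.9 TPM (138 cells) by E17.0. Cdh3 was higher with Shh at all 6 stages, and the stage means of the sets overlapped only in that the E13.0 cells with Shh lay below the E17.0 cells without it. At E11.5 just 3 cells had Shh, and that stage did not enter. Its 47 cells without Shh nonetheless averaged 117.6 TPM of Cdh3 and 40.9 TPM of Cdh1, a ratio of 2.88.

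Cdh1 was lower in the same cells at all 6 stages. Its means with and without Shh were 39.95 and 44.8 TPM at E12.0, 59.6 and 111 TPM in E13.0 cells, and 33.1 and 105 TPM in E13.5 cells. From E14.0 on they were 26.04 and 101 TPM, then 48.5 and 73.9 TPM, and 32.9 and 79.4 TPM at the last stage. E12.0 had the least difference, 1.12 times, and E14.0 the most, 3.88 times. Cell medians were lower still in the later Shh cells, at 16.2 TPM against 85.8 TPM at E14.0, 21.6 against 68.2 at E15.0 and 19.1 against 72.2 at E17.0.

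By limma on the paired stage differences, Cdh3 passed the threshold of 0.05, with 1.12 (log2, SE 0.17, adjusted p = 0.0266), and Cdh1 did not, with -1.07 (SE 0.23, adjusted p = 0.0560). Of 23671 genes tested, 2.04% passed, 0.680% as higher and 1.36% as lower, while 3.33% were higher and 5.48% lower at every stage. The Cdh3 call was lost in 12 of 37 alternatives. Among them were those without any one of the 5 stages after E12.0 (adjusted p from 0.0501 to 0.105, difference 1.03 to 1.24). It was also lost without either plate of E13.5 (0.0811), within plates (0.0831) and with Shh set at 1 TPM (0.0818) or 50 TPM (0.129). Leaving out either E13.5 plate puts the Shh cells of that stage under 5 and drops it. Both alternatives thus repeat the fit without E13.5 and show nothing about a plate. Cdh1 passed in 7 of 37 alternatives: without E12.0 (-1.26, adjusted p = 0.0152), on means of log2 values (-1.28, adjusted p = 0.0237), with a 10 TPM filter (0.0414), with the class rule without Trp63 (0.0487), and without E12.0 plate 1 (0.0402), E14.0 plate 2 (0.0493) or E15.0 plate 3 (0.0376).

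**Figure D3:**
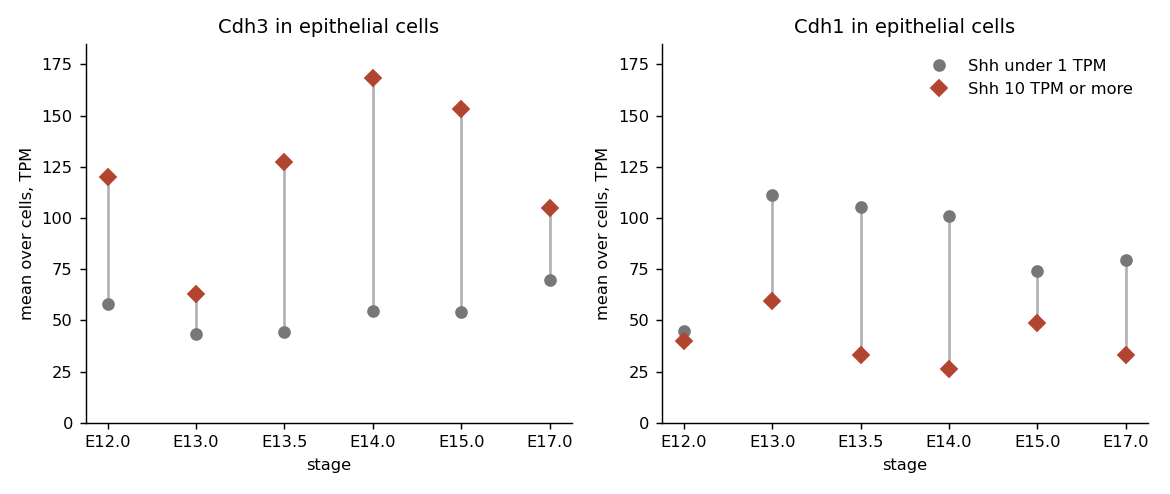
Mean TPM of Cdh3 (left) and Cdh1 (right) in epithelial cells with Shh at 10 TPM or more (diamonds) and under 1 TPM (circles), by stage; lines join the sets of a stage. Cdh3 is higher with Shh at each of 6 stages, from 63.1 against 43.5 TPM at E13.0 to 168 against 54.7 TPM at E14.0, and Cdh1 is lower at each.

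The ratio of the pair was thus higher with Shh at all 6 stages. Cdh3 over Cdh1 was 3.01 with and 1.29 without Shh at E12.0, 1.06 and 0.391 in E13.0 cells, 3.85 and 0.422 in those of E13.5, and 6.46 and 0.541 in those of E14.0. It was 3.16 and 0.732 on E15.0, and 3.19 and 0.880 on E17.0. Cells with Shh from 1 to under 10 TPM were between these values at each of these stages, for example 1.89 at E12.0 (28 cells) and 1.42 at E17.0 (10 cells). The mean log2 difference was 2.23 (SD 0.95, n = 6 stages), a factor of 4.70, and positive at 6 of 6 stages from 1.22 to 3.58. The exact paired permutation test gave p = 0.0312, two-sided, the smallest that 6 stages allow, and an adjusted p of 0.0625 over both ratio tests.

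Other values moved with Shh. The summed TPM of the 8 basal markers was lower in cells with Shh at every stage compared, from 752 against 922 at E12.0 to 641 against 2808 at E14.0. The fibroblast marker sum was 9.77 to 86.2 TPM with Shh and 15.7 to 89.8 TPM without it from E12.0 to E15.0, but 370 against 133 TPM at E17.0. Genes detected per cell differed little, for example 20187 and 19097 at E12.0 and 16043 and 16636 at E17.0. The part of these values in the cadherin differences was not tested.

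Cell by cell within plates, Cdh3 ranked with Shh and Cdh1 against it. The partial Spearman correlation of Cdh3 and Shh, given genes detected per cell, was 0.31 over 7 stages, from 0.14 at E11.5 and 0.17 at E17.0 to 0.43 at E13.0 and 0.58 at E12.0. For Cdh1 and Shh it was -0.23, between -0.11 at E13.5 and -0.36 at E17.0. Cdh1 and Cdh3 with each other had -0.16, negative at 6 stages and 0.11 at E11.5. These are descriptions over 1035 cells on 18 plates, and cells of a plate share a library preparation.

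List genes in the Shh comparison placed these cells. Of 7 placode genes, 4 were higher with Shh and 0 lower: the signal Bmp2 (41.7 against 1.32 TPM), Wnt10b (77.3 against 5.81), the ectodysplasin receptor Edar (40.9 against 3.93) and the Wnt effector Lef1 (341 against 34.9). Among the hedgehog genes, the effector Gli2 was lower (16.2 against 39.3 TPM). Catenins did not follow as a group, with a median of -0.35 over 13: the p120 relative Pkp4 was higher (203 against 89.9 TPM, 1.15, adjusted p = 0.00341 by limma), the actin binder Lima1 lower (8.73 against 30.2 TPM), and Ctnnb1 stood at 2110 against 1583 TPM (adjusted p = 0.204). Of the desmosome list 0 of 11 passed by limma (median -0.46, 5 at an unadjusted p under 0.05), as 0 of 5 nectins (1 unadjusted), 0 of 6 other cadherins (1) and 0 of 6 shedding genes (2). Of the repressors Tcf4 alone passed (168 against 103 TPM, higher), and of the epithelial keepers Esrp2 (136 against 72.1 TPM, higher). Of 10 list genes called here, 2 kept the call in all 37 alternatives, Pkp4 and Bmp2. Edar kept it in 35, Wnt10b in 32, Lef1 in 27, Lima1 and Gli2 in 25 each, Esrp2 in 24 and Tcf4 in 20. Without E13.5 the placode count was 2. Snai1, Twist1 and Twist2 were under the filter of a mean of 1 TPM, and Snai2, at 25.7 against 31.1 TPM, did not pass.

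The genes most like each epithelial cadherin, by the mean within-plate partial Spearman correlation among 22266 genes, differed between the pair. Among the genes most like Cdh1 were Rcn1 (0.37), S100a11 (0.37), Fam83b (0.36) and Cebpa (0.35). Among those most like Cdh3 were the sulfotransferase Chst11 (0.50), the polarity receptor Ptk7 (0.47), Bmp7 (0.46) and Trps1 (0.45). At the other end, looked at after the values were seen, Lef1 (-0.34), Pkp4 (-0.30), Bmp2 (-0.29) and Edar (-0.29) were lowest for Cdh1, and the plakophilin Pkp1 (-0.44) for Cdh3. All 7 placode list genes had a positive mean correlation with Cdh3 (median 0.25) and 0 of 7 with Cdh1 (median -0.25), and all 7 desmosome genes compared were positive with Cdh1 (median 0.19) and 0 of 7 with Cdh3 (median -0.22). The median over all genes was 0.01 for both.

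Cdh11, a cadherin of mesenchyme, appeared in a minority of epithelial cells from E13.5 on. Its epithelial mean was 0.544 TPM at E11.5, 0.512 on E12.0 and 1.25 on E13.0, then 4.06 TPM in E13.5 cells and 5.005 in E14.0 cells, and 6.42 and 8.03 TPM at the last stages. Plate means up to E13.0 (0.264 to 2.11 TPM) lay below those from E13.5 on (2.92 to 8.73). Cell medians stayed under 1 TPM at every stage, and single cells reached 96.2 TPM at E17.0.

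Epithelial cells with Cdh11 at 10 TPM or more were 0 of 54 at E11.5 (which allows up to 5.56%), 0 of 267 on E12.0 (up to 1.12%) and 2 of 53 on E13.0 (3.77%). The share was 11.9% of E13.5 cells (7.35 to 18.0), 15.97% of E14.0 cells (10.4 to 22.996), 16.9% of E15.0 cells (11.7 to 23.2) and 23.3% of E17.0 cells (17.4 to 30.2). All 116 such cells also had Cdh1 at 10 TPM or more, and 112 had Cdh3. The slope with embryonic day was 0.53 (log2 per day, SE 0.09, adjusted p = 0.0370 by limma), the one member called in this fit, in which 1.23% of genes were called as rising. The call was lost in 9 of 36 alternatives: on the plates with a lane in their description (0.89, adjusted p = 0.193), without E11.5, E12.0, E13.0, E14.0 or E15.0 (adjusted p from 0.0544 to 0.130, slope 0.49 to 0.52), without E13.5 plate 2 (0.0536), with no filter (0.122) and on protein-coding rescaled values (0.0529). Of all list genes, 1 more rose, the related cadherin Cdh6 (0.40 per day, adjusted p = 0.0309), from 2.26 TPM at E11.5 and 0.998 TPM at E12.0 to 11.4 TPM at E17.0, a call kept in 27 of 36 alternatives.

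**Figure D4:**
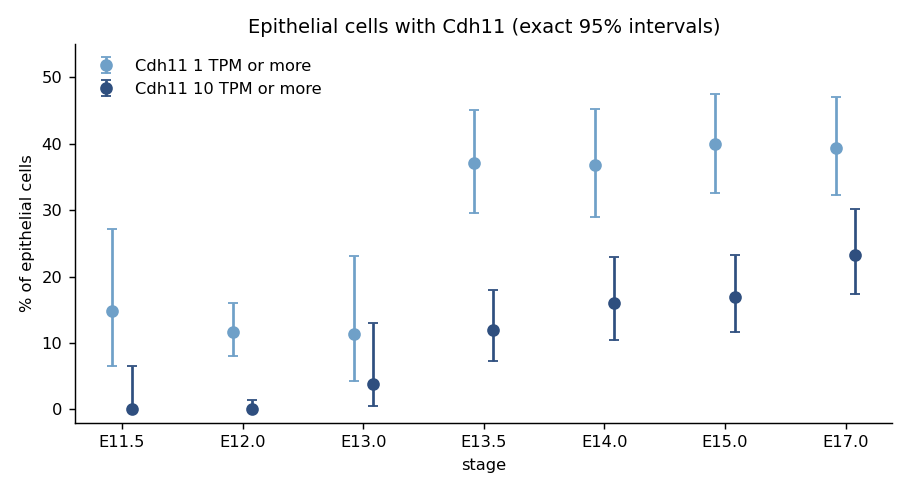
Percent of epithelial cells with Cdh11 at 1 TPM or more (light) and at 10 TPM or more (dark) by stage; bars are exact 95% intervals for counting error. The lighter points step from 11.3% at E13.0 to 37.1% at E13.5 and stay there, and the darker points go from 0 at E12.0 to 23.3% at E17.0.

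The epithelial cells with Cdh11 at 10 TPM or more kept the basal markers. Within stages, their median basal sum was 1962 TPM at E13.5, against 2551 TPM in epithelial cells with under 1 TPM of Cdh11, and 2131 against 2221 TPM at E14.0. It was 1862 against 1825 TPM at E15.0 and 2114 against 2148 TPM at E17.0. Cells with Cdh11 had medians of 8 of 8 markers at 10 TPM or more, of which the class rule itself fixed Krt5 and Trp63. The median fibroblast sum was 41.8 against 13.2 TPM at E13.5, 109.1 against 18.3 TPM at E15.0 and 208.1 against 43.95 TPM at E17.0, but 17.2 against 13.6 TPM at E14.0. Mean Col1a2, of type I collagen, was 56.99 against 13.9 TPM at E13.5, 195.7 against 31.3 TPM at E15.0 and 218.53 against 13.53 TPM at E17.0, and it was also close at E14.0, at 36.6 against 30.2 TPM. Col1a1 was 1.92 against 2.51 TPM at E14.0 and 63.3 against 7.11 TPM at E17.0. Over all 116 cells the other fibroblast genes were low. Pdgfra was at 1.32, Twist2 at 0.301, Prrx1 at 0.273, Lum at 0.0345 and Dcn at 1.82 TPM, and Col3a1, limited by the rule, at 1.38 TPM. Dcn went against Col1a2, being lower in cells with Cdh11 than in those with under 1 TPM of it. It was 2.65 against 6.45 TPM at E13.5, 2.20 against 4.63 at E14.0, 1.54 against 15.7 at E15.0 and 1.52 against 108.7 at E17.0. Genes named after their values were seen were, at E17.0, the stem cell factor Nfatc1 (317.04 against 163.4 TPM), the receptor Lgr5 (92.3 against 35.51), Tbx1 (83.6 against 24.7) and Sox9 (129.1 against 42.4), while Lef1 was 3.24 against 154.6 TPM. The differences had these directions at E13.5, E14.0 and E15.0 too, and the smallest was that of Tbx1 at E14.0 (25.7 against 23.7 TPM). These values describe the cells chosen by Cdh11 and carry no test. Over 972 epithelial cells and 6 stages, the genes most like Cdh11 were Adgrl3 (0.32), Frem2 (0.31), Adamtsl1 (0.31), Slc27a1 (0.30) and Clip3 (0.29).

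Cdh11 was low in cells with Shh after E13.0. With Shh, Cdh11 averaged 0.340, 0.280, 0.242 and 0.128 TPM in stage order from E13.5 to E17.0, against 4.37, 5.58, 6.81 and 9.88 TPM without Shh. Earlier, when few epithelial cells had Cdh11, it was 0.764 against 0.440 TPM at E12.0 and 0.867 against 1.26 TPM at E13.0. The difference over 6 stages was -1.71 (log2, SE 0.47) and did not pass (adjusted p = 0.104 by limma), and without E12.0 it did (-2.11, adjusted p = 0.0259).

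Cdh2 was close to absent from the epithelial class. Its stage means were 0.143 to 0.553 TPM, 5.41% of cells reached 1 TPM (exact interval 4.11 to 6.97), and the 2 cells at 10 TPM or more were both from E17.0. Its mean was under the filter in the epithelial trend and the Shh comparison, so that it has no test there. With and without Shh it was 0.229 and 0.210 TPM at E12.0 and 0.158 and 0.622 TPM at E17.0.

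In fibroblast-like cells, Cdh2 and Cdh11 took different courses that the spread between stages did not separate from no change. Cdh2 was at 38.7, 34.6, 36.1 and 35.5 TPM from E11.5 to E15.0 and 20.03 TPM at E17.0, and its share at 10 TPM or more was 85.7, 85.7 and 89.5% at E11.5, E13.0 and E14.0 but 54.8% on E15.0 and 58.7% on E17.0. The plates of E15.0 (18.5 to 46.5 TPM) overlapped those of every stage, and those of E17.0 (12.2 to 28.1) lay below E13.0 (30.9 to 40.1) and E14.0 (33.9 to 38.3). At E15.0, plate 1 with 73 fibroblast-like cells had 18.5 TPM and the other 3 plates 37.7 to 46.5 TPM. The slopes were -0.15 per day for Cdh2 (SE 0.06, adjusted p = 0.238), 0.11 for Cdh11 (SE 0.04, adjusted p = 0.188) and 0.27 for Cdh3 (SE 0.21, adjusted p = 0.531), by limma over 5 stages and 24049 genes, of which 0.345% passed.

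The Cdh11 to Cdh2 ratio was 3.77 at E11.5, 4.81 at E13.0, 4.55 at E14.0, then 5.41 for E15.0 and 11.1 for E17.0. Plate ratios ran from 4.60 to 5.22 at E13.0, 3.95 to 5.24 at E14.0, 4.30 to 7.95 on E15.0 and 7.999 to 15.8 for E17.0, where all 3 plates lay above every earlier one. No correlation with day was computed for 5 stages. The genes most like Cdh2 across cells were Rtn3 (0.48), the proteoglycan Vcan (0.48), Prex2 (0.47), the Wnt inhibitor Apcdd1 (0.46) and Macrod2 (0.46), and those most like Cdh11 were Rftn2, Pkd1, Copg2, Podn and Rmi2 (0.42 each), over 406 cells, 5 stages and 16567 genes. Cdh2 and Cdh11 did not go together themselves, with a mean of 0.05 and stages from -0.39 to 0.62. At single stages these correlations went from -0.30 to 0.91, and E11.5 and E14.0 gave them from 14 and 10 cells.

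Fibroblast-like cells with dermal condensate markers had 1.93 to 2.36 times as much Cdh2 at each stage compared. This comparison, chosen after seeing the data, sets cells with at least 3 of the 6 markers Sox2, Sox18, Bmp4, Fgf10, Wif1 and Cxcr4 at 10 TPM or more beside cells with fewer. Cdh2 averaged 51.4 TPM in 68 such cells and 26.7 TPM in 142 others at E13.0, 50.4 (8 cells) and 25.6 TPM (11 cells) at E14.0, 48.5 (19 cells) and 24.2 TPM (107 cells) at E15.0, and 33.9 (15 cells) and 14.3 TPM (31 cells) at E17.0. The sets did not overlap between stages.

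The Cdh2 difference was 1.01 (log2, SE 0.11, adjusted p = 0.0387 by limma over 4 stages and 24651 genes), in a comparison in which 0.763% of genes passed, 0.698% as higher. Cells with condensate markers also had more detected genes (18300 against 17902 at E13.0 and 18837 against 17364 at E15.0), the median of all genes was 0.14, and 25.6% of genes were higher at every stage. The part of this shift in the Cdh2 difference was not tested. The call was lost in 19 of 28 alternatives, among them median-of-ratios scaling (0.83, adjusted p = 0.0640) and leaving out E13.0, E14.0, E15.0 or E17.0 (adjusted p from 0.0642 to 0.250), with differences from 0.69 to 1.48 and adjusted p up to 0.610 over all of them. The plates whose omission lost it were both of E14.0, E15.0 plates 1 and 3, and E17.0 plates 1 and 2 (adjusted p up to 0.144). Leaving out either E14.0 plate leaves a set of that stage under 5 cells and drops the stage. Those alternatives thus repeat the fit without E14.0 and show nothing about a plate.

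Cdh11 and Cdh3 in these sets did not pass. Cdh11 was 216 and 142 TPM at E13.0, 186 and 150 at E14.0, 252 and 158.3 at E15.0, and 219 and 229 at E17.0 (0.38, SE 0.15, adjusted p = 0.223 by limma). Cdh3 was lower with condensate markers at 4 of 4 stages, with 0.683 and 0.785 TPM at E13.0, 1.91 and 11.47 at E14.0, 1.89 and 7.97 at E15.0, and 0.410 and 4.48 at E17.0 (-1.44, SE 0.37, adjusted p = 0.124), where 7.91% of all genes were lower at every stage. It passed without E13.0 (-1.90, adjusted p = 0.0463) and had the opposite sign with at least 2 markers in place of 3 (0.50, adjusted p = 0.810). Of the lists, 1 gene was called, the repressor Twist2, lower with condensate markers (67.7 against 289 TPM, -2.18, adjusted p = 0.0398). That call was kept in 11 of 30 alternatives, and 0.0649% of all genes were called lower.

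**Figure D5:**
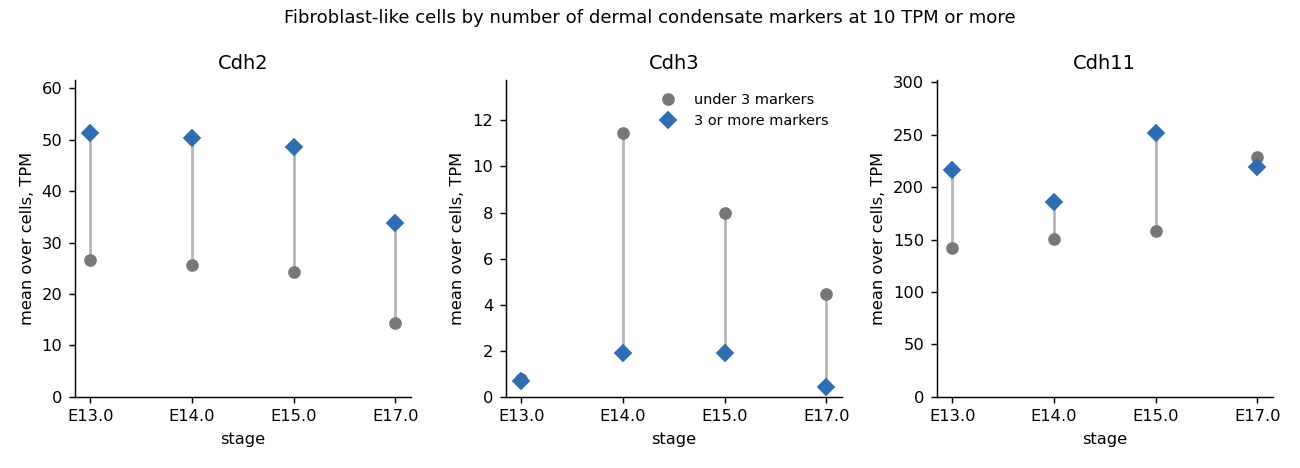
Mean TPM of Cdh2, Cdh3 and Cdh11 in fibroblast-like cells with at least 3 dermal condensate markers (diamonds) and with fewer (circles) by stage; lines join the sets of a stage, and each panel has its own axis from 0. Cdh2 is higher with the markers at each of 4 stages (33.9 to 51.4 against 14.3 to 26.7 TPM), Cdh3 is lower from E14.0 on, and Cdh11 has no gap at E17.0.

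Cdh3 in the fibroblast-like class was held by few cells. At 10 TPM or more they were 1 of 14 at E11.5, 4 of 210 at E13.0 (1.90%), 3 of 19 at E14.0, 19 of 126 at E15.0 (15.1%, exact interval 9.33 to 22.5) and 3 of 46 at E17.0, 30 in all, with a mean of 37.5 TPM. Pooled over stages, they had Cdh11 (133 TPM) and Cdh2 (24.5 TPM), against 177 and 31.7 TPM in cells with under 1 TPM of Cdh3. Cdh1 was 1.41 against 0.251 TPM. Cdh11 and Cdh2 were lower in the cells with Cdh3 at each stage that had them, for example Cdh11 at 129.7 against 177.4 TPM at E15.0. Of the basal markers, Itga6 was high (120.3 TPM at E15.0, against 28.8 TPM in its 96 cells with under 1 TPM of Cdh3), and over all stages Itgb4 was 2.78 TPM, and Krt5, Krt14, Krt15, Trp63, Col17a1 and Epcam were each under 1 TPM. Just 2 of the 30 had at least 3 condensate markers (6.67%, exact interval 0.818 to 22.1), against 99 of 346 cells with under 1 TPM of Cdh3 (28.6%, 23.9 to 33.7), pooled over stages. The pooled sets differ in their stages. At E15.0 alone it was 1 of 19 (5.26%, 0.133 to 26.03) against 18 of 96 (18.8%, 11.51 to 28.005), and these intervals overlap. Genes named after their values were seen were, at E15.0, the tenascin Tnn (100.2 against 2.08 TPM), the neurotrophin Ntf3 (32.6 against 3.85) and its receptor Ngfr (66.45 against 7.27). At E17.0, with 3 such cells, Ngfr was 16.9 against 25.6 TPM. These cells were chosen by Cdh3, and the values carry no test.

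The 162 cells of neither class differed in their cadherins by their own marker lists. Of these, 46 had at least 3 endothelial markers, and their median Cdh5, the endothelial cadherin, was 567 TPM while Cdh1, Cdh3, Cdh2 and Cdh11 had medians of 0, 0.349, 3.42 and 0.190 TPM. Another 46 had nerve and Schwann markers, with a median Cdh2 of 88.8 TPM, above the fibroblast-like median of every stage (11.3 to 80.1 TPM), a median Cdh11 of 0.342 TPM and a median Cdh19 of 73.2 TPM. The 11 Merkel-like cells (medians of 70.9 TPM Cdh1 and 111 TPM Cdh3) and 11 melanocyte-like cells (93.7 and 80.7 TPM) had both epithelial cadherins, the 10 immune-like cells had none of the 4 above a median of 0.401 TPM, and 38 cells stayed unnamed. The 4 cells that had Krt5 at 10 TPM and Col3a1 at 50 TPM or more had medians of 91.2 TPM Cdh1, 66.98 TPM Cdh3, 0.330 TPM Cdh2 and 3.58 TPM Cdh11.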

How the data were processed

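Single cells were profiled by RamDA-seq, and the authors deposited TPM values per gene symbol and cell, with column totals of 991213 to 999516. Per the submitters' processing notes, HISAT2 2.0.4, featureCounts of Subread 1.5.0, bcl2fastq 1.0 and the mm10 build were used, with no role or order given. Of 1666 labelled cells, 52 labelled low quality have no values and 1614 were analysed. Plates were read from the sample titles, and 8 of 18 have a description with a barcode and lane. The embryo behind each cell is not given in the sources used here. The 4 members, the 9 gene lists, the class rule and the tests were chosen with earlier results of these data known. Genes named beyond the members were list genes that passed or were needed by name and the 5 most like a member, and others are said to be chosen after their values were seen. Some genes that this rule names are not reported here.

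A stage mean was the mean over plates (at least 5 cells of the class) of plate means, while Shh and condensate sets were pooled over the plates of a stage with at least 5 cells in each set. Tests used log2(mean TPM + 1), a filter that drops genes whose mean is under 1 TPM, limma 3.58.1 (R 4.3.3, eBayes with trend, two-sided) and Benjamini-Hochberg adjustment over all genes tested, with a threshold of 0.05. Fold changes on this scale understate those of low genes. Ratios were tested by exact permutation over stages. Likeness was the Spearman correlation within plates, partial on genes detected, joined by Fisher's z, for genes that reach 1 TPM in 20% of the cells. Exact 95% binomial intervals cover counting error, and the limit for a count of 0 is 3 counts of the total. TPM keep no depth, so a low TPM has no interval. Scripts were tested on simulated data and run in Python 3.11.15 (scipy 1.17.1). Alternatives changed the pseudocount, filter, scaling, class and Shh limits, stages and plates. The condensate comparison and the limits to 1 plate format were added after seeing the data.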

Additional observations from a re-analysis of the deposited data

Results flagged for a closer look

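E15.0 plate 1 stood apart from the other 3 plates of its stage in epithelial cells in both of the following values. Its mean Cdh3 was 20.6 TPM, against 65.5 to 70.5 TPM on the others. Its mean Cdh11 was 7.93 TPM, against 5.72 to 6.03 TPM. The plate held 10 epithelial cells and 73 fibroblast-like cells, where the others held 53 to 58 and 15 to 20. In its fibroblast-like cells Cdh2 was 18.5 TPM and Cdh3 2.16 TPM, against 37.7 to 46.5 and 11.995 to 16.2 TPM. Of 20 groups of plates or stages examined for a lone distant value, 2 had one, and chance gives about 1 in 20. The plate shares its identifier with E13.0 plate 1, where the epithelial mean of Cdh3 was 51.4 TPM and that of Cdh11 0.351 TPM. The part of the plate's makeup in these values was not tested.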

How the results depend on the processing

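The 4 class differences kept direction and call in all 29 alternatives, the Cdh3 to Cdh1 ratio was higher with Shh in all of its own (1.96 to 2.43 without 1 stage or plate), and the trends of Cdh1 in epithelial and of Cdh2, Cdh3 and Cdh11 in fibroblast-like cells passed in none. The Cdh3 slope in epithelial cells ranged from -0.26 to 0.05 and the correlation of the ratio with day from -0.69 to 0.04 without 1 stage or plate, both turning positive without E11.5. Cdh3 with at least 2 condensate markers was 0.50. Counts of genes past the threshold moved far more, and the cause was not tested. The class difference had 5152 (2793 with a 10 TPM filter, 3332 on the plates with a lane in their description, 2267 to 7087 without 1 stage or plate). The epithelial trend had 443 (30 with no filter, 1412 on stage ranks, 729 on means of log2 values, 39 to 517 without 1 stage or plate) and by limma 0 on the plates with a lane (4270 at an unadjusted p under 0.05). The fibroblast-like trend had 83: 19 and 37 with pseudocounts of 0.1 and 5 TPM, 192 with a 10 TPM filter, 2 with median-of-ratios scaling, 391 on means of log2 values, 7 with stricter classes, 24 on pooled cells, 0 with no filter (6594 unadjusted) or protein-coding rescaling (5326), and 0 to 96 without 1 stage or plate. The Shh difference had 484: 302 with a pseudocount of 0.1 TPM, 32 with no filter, 61 with Shh at 50 TPM, 1.1e+02 (52 higher and 62 lower) with Shh at 1 TPM, 58 within plates, 73 on the plates with a lane, and 40 to 1909 without 1 stage or plate, the most without E12.0. The condensate difference had 188: 79 and 89 with pseudocounts of 0.1 and 5 TPM, 567 with a 10 TPM filter, 40 with median-of-ratios scaling, 660 on means of log2 values, 82 with protein-coding rescaling, 34 with stricter classes, 0 with no filter (6503 unadjusted), with 2 (3599) or 4 markers (4205), within plates (3873) or on the plates with a lane (1839), and 0 to 307 without 1 stage or plate.

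No paired analysis was possible because replicate numbers are accession order and pair nothing, while the stage already pairs the sets in each difference. The plate identifiers that 2 stages share join only E13.0 to E15.0 and E15.0 to E17.0, so that they give no block over all stages. The correlation of the Cdh11 to Cdh2 ratio with day was not run, since 5 stages are too few. Levels near 0, such as Cdh2 in epithelial cells, are limited by a depth that TPM does not give.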
